A study of Takifugu fasciatus with 6 samples.

Results

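The genes described here encode the subunits of the TCP1 ring complex, the chaperonin of the cytosol, in livers of the pufferfish Takifugu fasciatus. They were taken as every gene of the deposited table whose Swiss-Prot protein name starts with "T-complex protein 1 subunit", which gave 8 of 20990 genes, 1 for each of the subunits TCP1, CCT2, CCT3, CCT4, CCT5, CCT6A, CCT7 and CCT8. Liver mRNA of juvenile fish was sequenced in 6 libraries to compare a control group (CG) with an experimental group (EG) exposed to cold water. All fish had been acclimated at 26 °C and were unfed from 24 h before the treatment. The CG libraries G1, G2 and G3 came from fish that stayed at 26 °C. The EG libraries Ga, Gb and Gc came from fish that were cooled to 19 °C, held there for 12 h, cooled to 12 °C and sampled after 24 h at that temperature. The RNA of a library came from 6 fish whose livers had been pooled, and the fish were kept in 6 aquaria, so the p-values below measure the spread between pools, of which there were 3 in each group.

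The complex is a pair of stacked rings in which each ring holds a single copy of every subunit, so that an assembled complex contains the subunits in equal number. Unfolded proteins enter the cavity, and binding and splitting of ATP by the subunits closes a built-in lid over them while they fold. Actin and tubulin are the best known clients, and many proteins with WD repeats also pass through the ring. In the order worked out for the mammalian and yeast rings, CCT6A, CCT8, CCT7, CCT5, CCT2, CCT4, TCP1 and CCT3 follow each other around the circle. In yeast, TCP1, CCT2, CCT4 and CCT5 form the side that binds ATP tightly, and the subunits of the other side bind it weakly.

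The total of the deposited counts was 31150888 in the smallest library (G3) and 45548824 in the largest (Ga), and 14357 genes had enough counts to be tested. Across these genes the biological coefficient of variation between libraries was 29.6%. Between EG and CG 45.4% of them differed at an adjusted p under 0.05 by the quasi-likelihood test of edgeR (Benjamini-Hochberg adjustment). Of all tested genes 23.7% were called higher in EG and 21.7% lower, the background for the marker counts below. Levels are CPM, counts brought to libraries of a common size with factors of the TMM method. These factors were 1.0976 to 1.1465 in CG and 0.8236 to 0.9727 in EG. The scaling matters for every level below, because the log2 fold change had a median over the tested genes of -0.03 with TMM factors, -0.22 with upper quartile factors and -0.37 when the libraries were scaled to their totals alone. Markers of hepatocytes, such as apolipoprotein A-I, were abundant in all libraries, and 9 of 18 were higher and 0 lower in EG with TMM factors, but 4 were higher and 3 lower with library totals. Summed markers of exocrine pancreas ranged from 5465 to 23632 CPM in CG and from 569 to 20798 CPM in EG, and 0 of 10 tested passed, also at an unadjusted p under 0.05, where DESeq2 called 1 of 15. The low sum in EG was that of Gb. The pancreas protease CTRL was at 71.3 CPM in Gb, beside 2729 CPM in Ga and 3278 CPM in Gc. Of the erythrocyte markers 4 of 7 were lower in EG, and their sum was 4150 to 10538 CPM in CG and 2090 to 4233 CPM in EG. That count was 1 without G3, 2 without Gb and 6 with DESeq2 or library totals. Of the leukocyte markers 3 of 3 tested were lower, with sums of 31.2 to 52.9 CPM and 9.54 to 20.8 CPM. When G1, G3, Gb or Gc was left out, 2 were called, and the groups overlapped for lcp1 (adjusted p = 0.0462, edgeR). Of 15 tested markers of endothelial and stellate cells 4 were lower, a share near the 21.7% of all tested genes, and 0 higher. The 4 were 2 rows of LRAT and 2 of PECAM1. The markers summed to 1299 to 1678 CPM in CG and to 800 to 1443 CPM in EG. The count was 9 lower with library totals, 7 with DESeq2, which also called 1 higher, and 7 lower and 1 higher without Gc. Of 10 tested biliary markers 1 was lower (sox9), 3 without Gc or with library totals, and of 6 tested markers of dividing cells 2 were higher and 1 lower. With library totals 2024 of the 14357 tested genes were called higher and 4514 lower, and with DESeq2 3649 and 3383 of 18444. The part of these marker differences in the results below was not tested.

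All 8 subunit genes were tested, and 7 of them rose in the cold (adjusted p under 0.05, edgeR quasi-likelihood), against 23.7% of all tested genes that were called higher. The count called lower was 0 of 8, also at an unadjusted p under 0.05 and in DESeq2 and limma, where 21.7% of all tested genes were lower. CCT2, CCT8 and CCT7 rose the most, 2.13-fold, 1.95-fold and 1.88-fold, while CCT6A, TCP1, CCT5 and CCT4 rose 1.48-fold down to 1.36-fold and CCT3 did not pass the test. The median log2 fold change of the 8 genes was 0.54, with a range from 0.32 to 1.09, beside -0.03 for all tested genes. Only CCT2 met the criterion of a DEG, which adds a fold change over 2 and which 13.7% of all tested genes met upwards. In bulk liver, a change in the share of cells of a type and a change in the RNA per cell cannot be told apart.

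The calls fell into 2 sorts when the processing was varied. CCT2, CCT7 and CCT8 were called higher in all 12 alternative runs, which changed the scaling, the filter, the unit or the test, or left out a library. The number of subunits called higher was 3 with library totals, 3 with upper quartile factors and 3 with limma on log2(FPKM + 1) or on log2(FPKM + 0.1), and those 3 were the same genes each time. Leaving out G1 also left 3 calls, leaving out G3 or Ga left 4, G2 or Gb 5 and Gc 6. DESeq2 called 7. The calls of TCP1, CCT4, CCT5 and CCT6A given below held with DESeq2 and its own size factors, and each was lost under other scalings and when particular libraries were left out.

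**Figure D1:**
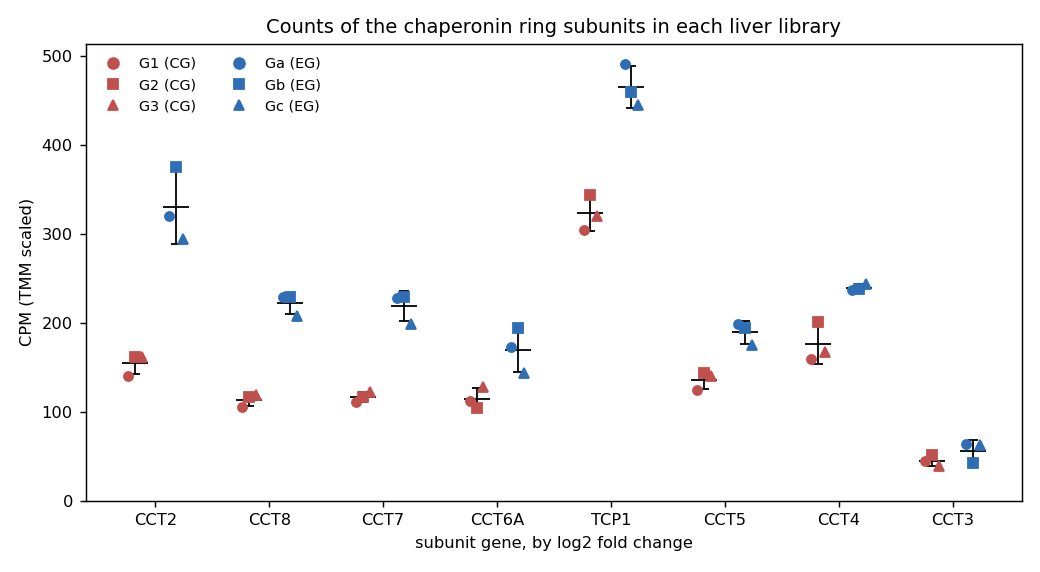
CPM after TMM scaling (y axis, from 0) of the 8 subunit genes (x axis, in order of their log2 fold change) in 3 CG libraries at 26 °C (red) and 3 EG libraries at 12 °C (blue). Points are libraries, and the black bars are the mean and SD of 3 libraries. The EG points lie above the CG points for 7 genes, with the widest gap for CCT2, and overlap with them for CCT3.

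CCT2 encodes the beta subunit. Human CCT2 can also act outside the ring, as a receptor that hands protein aggregates to autophagy. Its level was 141, 162 and 162 CPM in G1, G2 and G3 and 320, 376 and 294 CPM in Ga, Gb and Gc. Every EG library was above every CG library, and Gb was the highest. The log2 fold change was 1.09 ± 0.15 (SE), a 2.13-fold rise, with an adjusted p of 0.00105 (edgeR). Scaled to library totals it was 0.76 with an adjusted p of 0.00939.

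CCT8, the theta subunit, was at 105, 117 and 119 CPM in CG and at 229, 229 and 208 CPM in EG. In the nematode Caenorhabditis elegans, raising this subunit alone increases the amount of assembled complex. The groups were far apart, with the lowest EG library at 208 CPM and the highest CG library at 119 CPM. Its log2 fold change was 0.97 ± 0.14 (SE, adjusted p = 0.00102, edgeR) and 0.63 with library totals (adjusted p = 0.0108).

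CCT7, the eta subunit, sits beside CCT8 in the ring. It was measured at 111, 116 and 123 CPM in CG and at 228, 229 and 199 CPM in EG. As for CCT8, Ga and Gb were alike and Gc was the lowest of the EG libraries, still above all of CG. The log2 fold change was 0.91 ± 0.14 (SE, adjusted p = 0.00135, edgeR) and 0.57 with library totals (adjusted p = 0.0177).

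TCP1, the alpha subunit that gave the complex its name, had the most counts of the 8 genes. It stood at 305, 344 and 320 CPM in CG and at 491, 460 and 445 CPM in EG. The groups did not overlap. Its log2 fold change was 0.53 ± 0.14 (SE, adjusted p = 0.0150, edgeR), a 1.44-fold rise. With library totals it was 0.19 (adjusted p = 0.326), and without G1 or G3 the adjusted p was 0.0598 or 0.0542.

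CCT6A, the zeta subunit, has a second copy in mammals that is used in the testis. It was at 112, 104 and 128 CPM in CG and at 173, 194 and 143 CPM in EG. The groups were apart by a small margin, since Gc at 143 CPM was not far above G3 at 128 CPM. The log2 fold change was 0.56 ± 0.16 (SE, adjusted p = 0.0246, edgeR), and 0.23 with library totals (adjusted p = 0.360).

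CCT5, the epsilon subunit, is mutated in a hereditary sensory neuropathy in humans. Its levels were 125, 144 and 140 CPM in CG and 199, 194 and 175 CPM in EG. The groups were apart, and the log2 fold change was 0.48 ± 0.14 (SE, adjusted p = 0.0236, edgeR). With library totals it was 0.14 (adjusted p = 0.490).

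CCT4, the delta subunit, was at 159, 201 and 167 CPM in CG and at 237, 238 and 244 CPM in EG. Human CCT4 and CCT5 can each form rings alone when they are made without the other subunits. The 3 EG libraries were close together, with a coefficient of variation of 1.57%, and all lay above G2, the highest of CG. The log2 fold change was 0.45 ± 0.14 (SE, adjusted p = 0.0355, edgeR) and 0.11 with library totals (adjusted p = 0.583).

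CCT3, the gamma subunit, lies between TCP1 and CCT6A in the ring and had the fewest counts. It was at 44.6, 51.8 and 39.0 CPM in CG and at 63.4, 43.0 and 62.5 CPM in EG. Ga and Gc were above CG, while Gb lay within the CG range. The log2 fold change of 0.32 ± 0.19 (SE) did not pass the test (adjusted p = 0.211, edgeR), and its sign turned with library totals (-0.03).

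For 7 of the 8 genes all EG libraries were above all CG libraries in CPM, which held for 29.0% of all tested genes, while 28.8% of them had all EG libraries below CG and 0 of the 8 did. In FPKM, which is the count divided by gene length and library total, this held for 4 genes, CCT2, CCT7, CCT8 and TCP1, and for 18.1% of all tested genes, while 39.8% of all tested genes and 0 of the 8 had all EG libraries below CG. The exact permutation test over 3 against 3 libraries cannot give a two-sided p below 0.1, so no such p is given for single genes. The median coefficient of variation of the 8 was 7.69% in CG and 7.29% in EG, and over all tested genes it was 14.7% in CG and 23.2% in EG. Single values of the 8 ranged from 1.57% to 20.5%, the highest for CCT3 in EG. All tested genes include those with few counts, while the 8 were above 79.2% (CCT3) to 98.2% (TCP1) of all genes by FPKM in CG. Genes of like abundance were not compared.

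**Figure D2:**
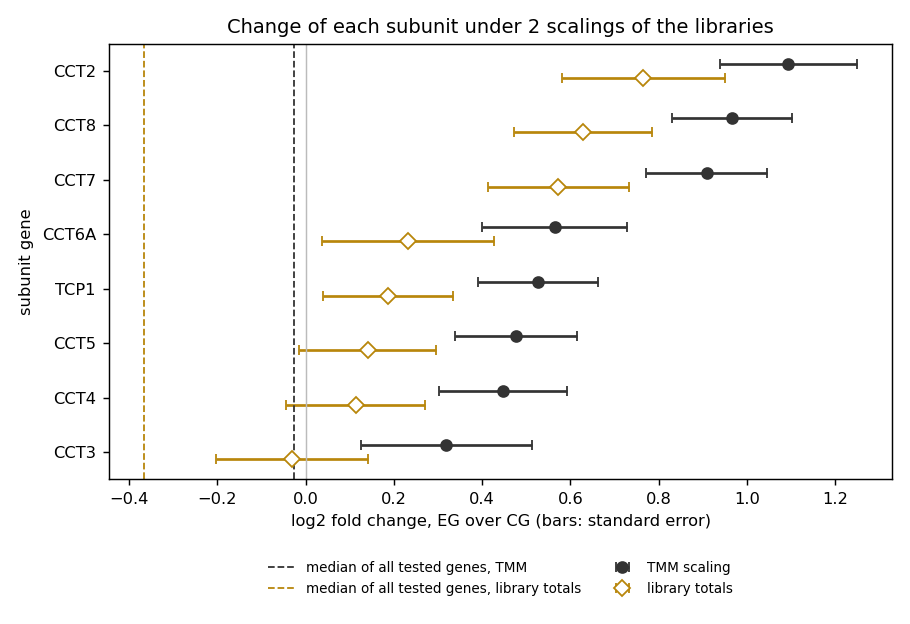
Log2 fold change of EG over CG (x axis) for each subunit gene (y axis) with TMM factors (filled circles) and with libraries scaled to their totals (open diamonds). Bars are standard errors and dashed lines are the medians of all tested genes, -0.03 and -0.37. Each gene shifts by about as much as the median of all genes, and CCT3 crosses 0.

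All 8 genes were above the median of all tested genes with TMM factors. CCT2 ranked above 86.5% of all tested genes by log2 fold change and CCT3 above 63.5%.

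Ratios between subunits inside a library do not depend on the scaling. The 8 genes form 28 pairs, and the count ratio of 17 pairs (60.7%) did not overlap between the groups. Among all pairs of tested genes 54.8% did not, so the share is near the background and single ratios are given as a description, with no test. The ratio of CCT2 to TCP1 was 0.461, 0.469 and 0.505 in the CG libraries and 0.652, 0.817 and 0.660 in the EG libraries. All EG libraries were above CG, with Gb the highest. The ratio of CCT8 to TCP1 was 0.352 ± 0.0180 (SD, n = 3) in CG and 0.477 ± 0.0178 in EG, and that of CCT7 to TCP1 was 0.362 ± 0.0225 in CG and 0.470 ± 0.0262 in EG, both without overlap. The ratio of CCT5 to TCP1 was 0.421 ± 0.0142 in CG and 0.407 ± 0.0151 in EG, and these ranges overlapped, as did those of CCT3, CCT4 and CCT6A to TCP1. The ratio of CCT2 to CCT8 went from 1.36 ± 0.0244 to 1.48 ± 0.137 without overlap. CCT7 and CCT8, neighbours in the ring, had a ratio of 1.03 ± 0.0302 in CG and 0.985 ± 0.0238 in EG, with overlapping groups. Other neighbours had ratios without overlap, namely CCT6A to CCT8, CCT5 to CCT7, CCT2 to CCT5 and CCT2 to CCT4. The ratio of CCT5 to CCT7 went from 1.17 ± 0.0628 to 0.866 ± 0.0161, and that of CCT2 to CCT5 from 1.14 ± 0.0183 to 1.74 ± 0.170. The neighbours CCT4 and TCP1, CCT3 and TCP1, and CCT3 and CCT6A had overlapping ratios. CCT2 belongs to the tight-binding side of the ring as described for yeast, and CCT7 and CCT8 to the weak-binding side.

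**Figure D3:**
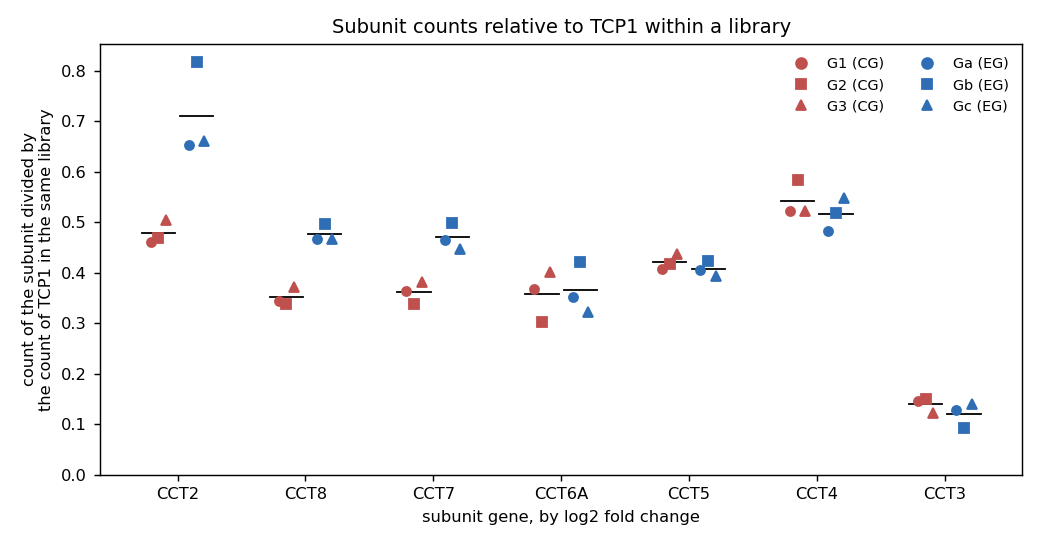
Count of each subunit divided by the count of TCP1 in the same library (y axis, from 0), by gene (x axis, in order of log2 fold change). Points are libraries, red for CG and blue for EG, and black lines are group means. The EG libraries lie above CG for CCT2, CCT8 and CCT7, and the groups overlap for CCT6A, CCT5, CCT4 and CCT3.

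Summed over the 8 genes, the subunits took 0.125%, 0.136% and 0.137% of all counts in G1, G2 and G3 and 0.160%, 0.191% and 0.155% in Ga, Gb and Gc. Every EG library was above every CG library, and the ratio of the means was 1.27. After TMM scaling the sum was 1180 ± 70.2 CPM (SD, n = 3) in CG and 1892 ± 105 CPM in EG, a ratio of 1.60. The gap between these ratios is set by the TMM factors.

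Levels of different subunits can be set side by side only per length. In FPKM, TCP1 was the highest in every library, at 227 ± 10.3 (SD, n = 3) in CG and 258 ± 18.4 in EG, above 98.2% of all genes of the table in CG. CCT4 followed in CG at 123 ± 12.7, then CCT2 at 82.8 ± 6.41 and CCT7 at 73.5 ± 4.49. In EG, CCT2 was at 141 ± 28.7, CCT4 at 133 ± 11.3 and CCT7 at 109 ± 13.99. CCT2 was above CCT4 in 2 of the 3 EG libraries and in none of CG, and the ranges of both genes overlapped in EG. CCT6A, CCT8 and CCT5 lay close together in CG, at 41.2 ± 5.23, 36.5 ± 2.54 and 35.1 ± 2.42 FPKM, with overlapping ranges. In EG, CCT8 reached 56.4 ± 6.15 FPKM, CCT6A 48.3 ± 10.4 and CCT5 38.7 ± 4.201. CCT8 was above CCT6A in all 3 EG libraries, although the ranges of these genes overlapped. CCT3 was the lowest in every library, at 10.9 ± 1.30 in CG and 10.7 ± 1.48 in EG.

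**Figure D4:**
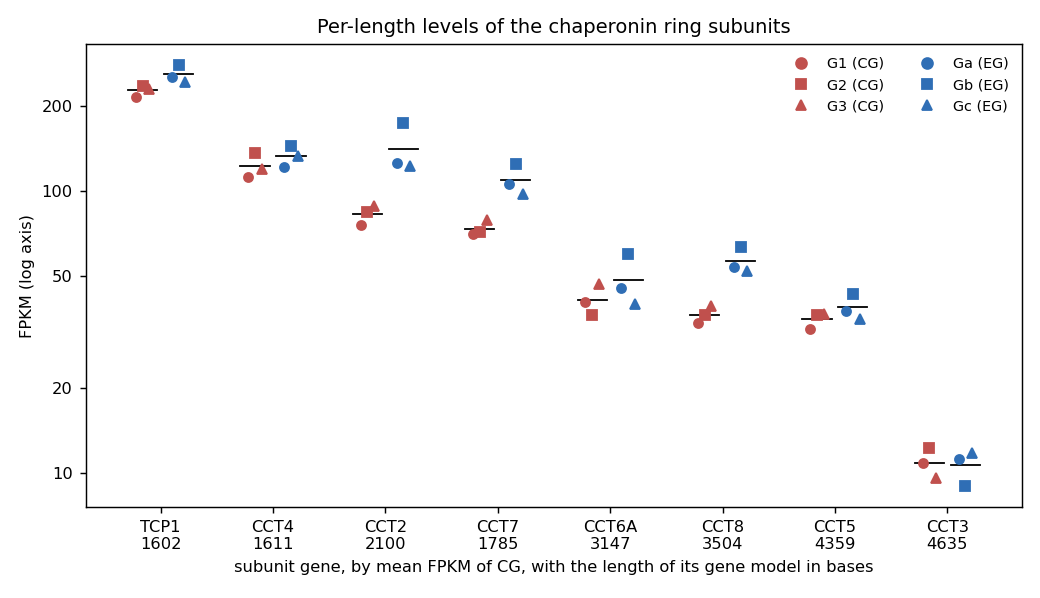
FPKM (y axis, log scale) of each subunit gene in each library, with genes in order of their mean in CG and the length of each gene model in bases under its name (x axis). Points are libraries, red for CG and blue for EG, and black lines are group means. TCP1 is the highest and CCT3 the lowest in all 6 libraries, and the genes with models of 3147 bases or more are the lower ones.

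The gene models differ in length more than the proteins they are named for. TCP1, CCT4, CCT7 and CCT2 have models of 1602, 1611, 1785 and 2100 bases. CCT6A, CCT8, CCT5 and CCT3 have models of 3147, 3504, 4359 and 4635 bases. Proteins of this family are known to be of similar size. All 8 rows share 21 molecular function terms, among them ATP binding. The row of CCT3 carries 14 further terms, with glycosyl transferase and cysteine protease inhibitor activity among them. That of CCT6A carries 7, among them structural constituent of ribosome, and that of CCT8 carries 6, of protein kinase type. No further term is given for the other 5. Whether the long models include sequence of other genes was not tested, and their counts and FPKM, that of CCT3 above all, carry that limit. Among the 4 shorter models 4 rose, with a median log2 fold change of 0.72, and among the 4 longer models 3 rose, with a median of 0.52. Among the 4 shorter models, the ratio of the highest to the lowest FPKM in a library was 3.09 ± 0.195 (SD, n = 3) in CG and 2.37 ± 0.130 in EG.

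The 8 genes lie on 8 scaffolds of a genome whose build is not stated. On the plus strand, TCP1 spans bases 1222709 to 1225881 of scaffold 23, CCT2 spans 322721 to 328162 of scaffold 112 and CCT7 spans 973757 to 977175 of scaffold 49. CCT4 spans 282275 to 285603 of scaffold 169, CCT5 spans 244995 to 258286 of scaffold 344, CCT6A spans 700888 to 714561 of scaffold 121 and CCT3 spans 303539 to 324987 of scaffold 60. CCT8 is on the minus strand, from 2510062 to 2522890 of scaffold 9. Rises and falls were both found next to the subunits, and only some of the neighbours past the threshold are described here. ACAT2, a thiolase of the cytosol, lies 565 bases past TCP1 on the opposite strand, and in mammals the ends of these genes overlap. It fell from 124 ± 6.42 CPM (SD, n = 3) to 58.6 ± 18.6 CPM, a log2 fold change of -1.08 (adjusted p = 0.00682, edgeR). On the opposite strand 886 bases before CCT5, Mtrr, a reductase that reactivates methionine synthase, fell from 4.93 ± 0.325 to 1.55 ± 0.328 CPM (adjusted p = 0.00155, edgeR). Pus10, a pseudouridine synthase 890 bases before CCT4, also on the opposite strand, rose from 4.68 ± 0.787 to 11.8 ± 1.83 CPM (adjusted p = 0.00165, edgeR). The sources used here do not say that counting used strand, and without it reads from overlapping ends of such neighbours cannot be told apart.

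The genes whose profile over the 6 libraries was most like that of the subunits were found from log2 CPM centred on each gene's own mean. The measure was the root mean square difference from the median profile of the 8, over 5676 named genes with a mean of at least 10 CPM. NDUFA10, a subunit of respiratory complex I, was the nearest at 0.03. The next were rpsa, a protein of the small ribosomal subunit, at 0.03, eif3h, a subunit of translation initiation factor 3, at 0.04, GOT1, the aspartate aminotransferase of the cytosol, at 0.05 and AOX1, an aldehyde oxidase, at 0.05. The distances of the subunits themselves ran from 0.08 for TCP1 to 0.29 for CCT3. The named genes were picked as the nearest of 5676 and the subunits were not, so these distances cannot be compared. NDUFA10 was at 27.5 ± 0.813 CPM (SD, n = 3) in CG and 44.3 ± 0.571 CPM in EG, and rpsa at 2013 ± 126 CPM in CG and 3167 ± 76.2 CPM in EG.

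Prefoldin binds new actin and tubulin chains and hands them to the ring. Of its 7 listed subunits and relatives, 3 rose and 0 fell (0 also at an unadjusted p under 0.05 in edgeR and in DESeq2, and 1 unadjusted in limma), with a median log2 fold change of 0.48. The shares over all tested genes were 23.7% higher and 21.7% lower. Vbp1, prefoldin subunit 3, rose from 7.48 ± 0.484 CPM (SD, n = 3) to 14.4 ± 1.79 CPM, by 0.95 on the log2 scale (adjusted p = 0.00250, edgeR), and it alone of these stayed called with library totals. Pfdn1, prefoldin subunit 1, rose from 6.05 ± 0.174 to 9.43 ± 0.493 CPM (adjusted p = 0.0131) and URI1, of the prefoldin-like complex, from 11.7 ± 0.797 to 16.2 ± 1.62 CPM (adjusted p = 0.0312). The log2 fold changes of PFDN5, Pfdn6, Uxt and Pdrg1 were 0.70, 0.17, 0.33 and -0.26 and did not pass. The 7 genes summed to 63.7 to 67.0 CPM in CG and to 84.7 to 92.8 CPM in EG. No row was found by gene name under PFDN2 or PFDN4, which are not covered.

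Phosducin-like proteins bind the ring and modulate it. Txndc9 rose from 22.1 ± 2.04 CPM (SD, n = 3) to 33.5 ± 3.38 CPM (adjusted p = 0.0109, edgeR), a call that was lost with library totals (adjusted p = 0.199) and without G1. PDCL, which helps the ring to assemble G protein beta and gamma subunits, fell from 11.05 ± 0.992 CPM to 5.40 ± 2.03 CPM, a log2 fold change of -1.03 (adjusted p = 0.0162), not called without G1 or G2. Pdcl3 was at 62.8 ± 7.29 CPM in CG and 73.6 ± 3.12 CPM in EG and did not pass (adjusted p = 0.218). PDCL2 and PDCD5 were sought by gene name and no row was found.

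The chaperonin of the mitochondria, which is distantly related to the TCP1 ring, rose as well. HSPD1, its ring subunit, was at 44.1, 44.0 and 43.1 CPM in CG and at 116, 116 and 90.9 CPM in EG. Hspe1, its lid, was at 6.78, 6.90 and 6.05 CPM in CG and at 17.0, 17.2 and 12.6 CPM in EG. In both genes Gc was the lowest EG library and the groups were far apart. The log2 fold changes were 1.30 ± 0.15 (SE, adjusted p = 0.000419) and 1.25 ± 0.18 (SE, adjusted p = 0.00114) in edgeR's test, and both stayed called in all 12 alternatives. Of the chaperonin-like BBS proteins, which work at the cilium, Bbs10 fell and MKKS and BBS12 did not pass, and all were under 1 CPM on average.

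Of the known clients, the actins and tubulins matched by gene name to the list were not called higher. Among 7 tested, 0 rose (0 also unadjusted and in DESeq2 and limma) and 1 fell, TUBG1, the gamma tubulin of spindle poles, from 5.40 ± 0.715 to 3.20 ± 0.359 CPM (adjusted p = 0.0231, edgeR). Actb, the main cytoplasmic actin, was at 1547 ± 56.9 CPM in CG and 1444 ± 223 CPM in EG (adjusted p = 0.642). With library totals its log2 fold change was -0.44 (adjusted p = 0.0423, edgeR), and it was called lower in 3 of 12 alternatives. Of the 7 genes 5 were lower with library totals, beside 4514 of 14357 tested genes. Many tubulin rows have no gene name, and the named actin actbc was not matched by the list. When genes were taken by protein name, a choice made after seeing the data, 6 of 23 tested rose and 3 fell. Of all tested genes 23.7% were called higher and 21.7% lower, so the share that rose is near the background. The beta tubulin fugu_GLEAN_10002568 rose from 318 ± 49.2 CPM (SD, n = 3) to 830 ± 44.0 CPM, by 1.38 on the log2 scale (adjusted p = 0.000475). The alpha tubulin Novel00216 rose from 79.2 ± 21.7 to 318 ± 28.0 CPM, by 2.01 on the log2 scale (adjusted p = 0.000326). Fugu_GLEAN_10006202, named as a beta-6 chain, fell from 20.1 ± 4.91 to 5.03 ± 3.52 CPM (adjusted p = 0.00809). Tubulin genes are near copies of each other, and reads may have been split between them. The rows by protein name summed to 2049 to 2205 CPM in CG and to 2615 to 2948 CPM in EG.

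Of 21 tested genes for other clients, mostly WD repeat proteins, 11 rose and 4 fell, beside 23.7% and 21.7% of all tested genes. Among those that rose, plk1, CCNE2 and CDC20 were under 1 CPM on average over the 6 libraries. The median log2 fold change of the 21 was 0.66. VHL was sought by gene name and no row was found. One row of PPP2R2A, a regulatory subunit of phosphatase 2A, rose by 1.70 on the log2 scale, from 2.79 ± 0.717 to 9.03 ± 2.91 CPM. A second and more abundant row of the same name fell by 0.66, from 72.3 ± 19.3 to 45.9 ± 5.94 CPM. The related ppp2r2d rose from 7.06 ± 1.15 CPM (SD, n = 3) to 13.97 ± 3.04 CPM (adjusted p = 0.00743, edgeR). Stat3, a transcription factor, rose in both of its rows, by 1.52 and 0.86 on the log2 scale. STRAP, a WD repeat protein that binds receptors of the TGF-beta family, rose from 19.1 ± 1.52 CPM to 37.8 ± 3.51 CPM (adjusted p = 0.00112) and stayed called in all 12 alternatives. Wrap53, which guides telomerase to Cajal bodies, fell from 32.2 ± 4.01 to 14.3 ± 2.64 CPM (adjusted p = 0.00145) and GNB4 from 5.15 ± 1.10 to 2.24 ± 0.716 CPM (adjusted p = 0.0135). GNB4 encodes a G protein beta subunit, and other beta rows rose. Gnb2 rose from 33.0 ± 2.12 to 60.9 ± 4.52 CPM (adjusted p = 0.00139, edgeR) and stayed called in all 12 alternatives. A row of gnb1 rose from 9.88 ± 0.980 to 15.9 ± 2.14 CPM (adjusted p = 0.0114). The second row of gnb1, GNB3 and GNB5 did not pass. One row of Fzr1, an activator of the anaphase-promoting complex, fell by 0.61 on the log2 scale, and its second row had a log2 fold change of 0.59 that did not pass (adjusted p = 0.0647). With library totals 6 of the 21 rose and 7 fell, and without G2 only 1 fell. Of all 14357 tested genes 2024 were called higher and 4514 lower with library totals, and 2264 of 14670 lower without G2.

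Tubulin cofactors take over tubulin that leaves the ring. Of 8 tested, 2 rose and 1 fell, shares near those of all tested genes (23.7% and 21.7%). Without Ga 4 rose, beside 3130 of 14768 tested genes called higher. TBCA, which holds beta tubulin, rose from 8.86 ± 1.85 CPM (SD, n = 3) to 25.9 ± 2.41 CPM, by 1.55 on the log2 scale (adjusted p = 0.000489, edgeR). Tbcb rose from 9.48 ± 0.503 to 13.6 ± 2.09 CPM (adjusted p = 0.0358), a call held in 3 of 12 alternatives (adjusted p = 0.484 with library totals). One row of TBCEL, which breaks tubulin down, fell from 3.95 ± 0.629 to 0.811 ± 0.177 CPM (adjusted p = 0.000872). A second and far more abundant row, Tbcel, was at 64.4 ± 1.58 CPM in CG and 66.0 ± 8.80 CPM in EG and did not pass (adjusted p = 0.866).

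HSP70 can pass clients to the ring. In the HSP70 and HSP90 systems 9 of 18 tested genes rose and 0 fell (1 at an unadjusted p under 0.05, 0 in DESeq2, 2 in limma). The median log2 fold change of the 18 was 0.53. Of all tested genes 23.7% were called higher and 21.7% lower. The list was matched by gene name, and no row was found under HSPA8, HSPA1A, HSPA1B, HSP90AA1, HSPH1, DNAJA1, BAG2 or HSF2. These are not covered. Hspa4, a nucleotide exchange factor for HSP70, rose from 11.1 ± 1.19 CPM (SD, n = 3) to 73.4 ± 11.3 CPM, by 2.73 on the log2 scale (adjusted p = 6.13e-05, edgeR). CHORDC1 rose by 1.51, Dnaja2 by 1.46 and cdc37 by 1.32 on the log2 scale, and all 3 bind HSP70 or HSP90. A second row named DNAJA2 had all EG libraries below CG and a log2 fold change of -0.23 that did not pass (adjusted p = 0.273), and it was called lower with library totals (adjusted p = 0.0448). With library totals 5 of the 18 rose and 2 fell, and without G1 5 rose. Of all 14357 tested genes 2024 were called higher and 4514 lower with library totals, and 2598 of 14696 higher without G1.

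**Figure D5:**
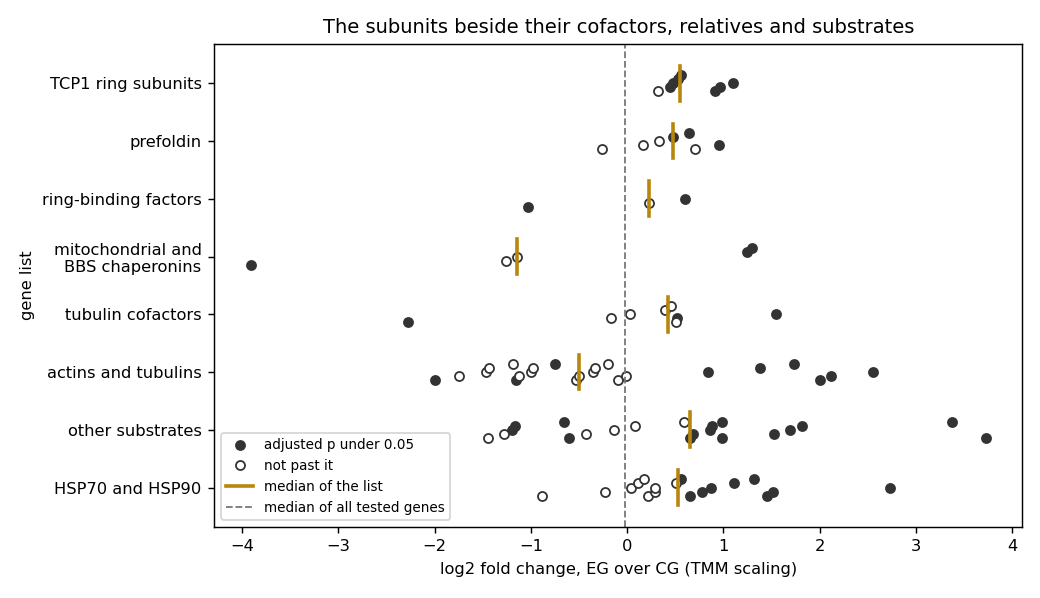
Log2 fold change of EG over CG with TMM factors (x axis) of each tested gene in 8 gene lists (y axis). Filled points passed an adjusted p of 0.05 and open points did not, vertical bars are list medians, and the dashed line is the median of all tested genes, -0.03. Actins and tubulins are the rows taken by protein name, a choice made after seeing the data. The ring subunits lie between 0.32 and 1.09. That span is narrower than that of the actins and tubulins, the other clients or the mitochondrial and BBS chaperonins. The lists were not matched in size or abundance, and some of their genes were under 1 CPM on average.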

How the data were processed

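Per the labels, the authors mapped the reads of the 6 liver libraries with HISAT2 2.0.4, to an unpublished T. fasciatus genome, and RSEM 1.2.3 was used for quantification. The genome build and annotation are not given in the sources used here. The deposited table holds whole-number counts per gene without normalization, and the authors' FPKM values, of which 97.7% of those above 0 lay within 1% of count divided by gene length and library total. Since 96.6% of lengths are multiples of 3, they are close to coding lengths. Columns with the fold changes and p-values of the authors were left out, and 1 row of the deposited table was not used here. Depth was 31150888 to 45548824 counts per library.

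Counts were kept by filterByExpr, scaled by TMM and compared by the quasi-likelihood F test of edgeR 4.0.16 (R 4.3.3) with Benjamini-Hochberg adjustment over 14357 genes, without covariates. CPM are TMM scaled. The standard error is the log2 fold change divided by the square root of F. Alternatives used library totals, upper quartile factors, DESeq2 1.42.0, no filter, limma 3.58.1 on log2(FPKM + 1) or log2(FPKM + 0.1) with a mean FPKM of at least 0.5, and left out each library in turn. The scripts were tested on simulated data.

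All subunits, prefoldin and ring-binding genes were named. Of other lists, up to 4 genes past the threshold in each direction could be named, by largest change, with a mean of at least 1 CPM. Likeness used log2 CPM with a prior count of 2. Actb, MKKS, BBS12, Bbs10, plk1, CCNE2 and CDC20 were named after their values were seen. So were the second rows of Stat3, Fzr1, DNAJA2 and Tbcel and the single tubulin rows. The pancreas marker CTRL, the actin actbc and the G protein beta genes other than GNB4 were also named after their values were seen. Of the neighbours of the subunits past the threshold, only ACAT2, Mtrr and Pus10 were described, picked after their values were seen. TMIGD1 beside CCT8, mnt beside CCT6A and fugu_GLEAN_10008124 beside TCP1 were also called lower, and JTB beside CCT3 was called higher. The members and lists were chosen with earlier results of these data known.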

Additional observations from a re-analysis of the deposited data

How the results depend on the processing

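CCT2, CCT7 and CCT8 kept their direction and call in all 12 alternatives tried. TCP1 lost its call in 6, CCT5 and CCT6A in 8 and CCT4 in 9, with no change of sign. CCT3 turned to -0.031 with library totals, to -0.031 with limma on log2(FPKM + 1) and to -0.034 with limma on log2(FPKM + 0.1), none past the threshold. The number of subunits called higher was 7, and 3 with library totals, upper quartile factors and both limma runs. It was 4 when only the 4 shorter gene models were counted, an alternative chosen after seeing the data, and 3 to 6 when a library was left out. No subunit was called lower in any run. The median log2 fold change of the subunits, 0.54, became 0.21 with library totals, 0.35 with upper quartile factors, 0.20 with limma on log2(FPKM + 1), 0.20 on log2(FPKM + 0.1) and 0.72 over the 4 shorter models. Of all tested genes 3398 were called higher and 3113 lower, so 52.2% of the calls were upwards. With library totals 2024 were higher and 4514 lower (30.96% upwards), with upper quartile factors 40.0% were upwards, and with limma 1920 were higher on log2(FPKM + 1) (30.1% upwards) and 1911 on log2(FPKM + 0.1) (30.4% upwards). The prefoldin calls went from 3 to 1 with library totals, upper quartile factors and both limma runs, and to 1 to 3 when a library was left out. The actin and tubulin calls went from 1 to 5 with library totals, 3 with upper quartile factors, 2 with DESeq2, 4 with each limma run, 9 when taken by protein name (chosen after seeing the data) and 0 to 2 when a library was left out. Library totals, upper quartile factors and FPKM each lower the EG values relative to TMM, as the medians of all tested genes show. The causes of the other changes were not tested. No paired analysis was possible because the libraries of the groups carry no shared number. With 3 pools in each group, small changes such as that of CCT3 could not be resolved at the spread between pools.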
